A study of Mus musculus with 12 samples.

Results

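The interferon-stimulated genes described here are 33 genes chosen by name, comprising antiviral effectors induced by type I interferon and the transcription factors that drive them. All 33 were among the 30130 genes of the table, and all 33 passed the filter on low values that left 21415 genes to test. They were measured by RNA sequencing of whole proximal thoracic aorta in mice. The aneurysm group held 7 libraries (numbered 2, 3, 4, 6, 7, 9 and 12) of chronic proximal thoracic aortic aneurysm (cPTAA), made by periaortic elastase, which digests elastin, combined with BAPN, which blocks the lysyl oxidases that crosslink collagen and elastin. The sham group held 5 libraries (1, 5, 8, 10 and 11) of proximal thoracic aorta after sham surgery, from mice on normal water. All mice were male and of the strain labelled C56BL/6J. The labels name neither age nor time of harvest. Elastase and BAPN were combined in every aneurysm, so that their parts cannot be told apart.

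Type I interferons bind the receptor chains encoded by Ifnar1 and Ifnar2, whose kinases Jak1 and Tyk2 phosphorylate STAT proteins such as Stat2. Together with Irf9, Stat2 is part of the ISGF3 complex, which binds the interferon-stimulated response element (ISRE) in the promoters of its target genes. Interferon gamma acts through its own receptor and the GAS element, and shares targets with type I interferon, among them the guanylate-binding proteins. Many cell types of the vessel wall, including smooth muscle, endothelial and immune cells, can respond.

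Depth was 15.238 to 17.493 M reads in cPTAA and 14.079 to 16.741 M in sham. Values below are normalised read counts, in which 1 read was worth 0.863 to 1.164 units. Smooth muscle markers (Acta2, Myh11 and 4 others) summed to 65062 to 256186 in cPTAA and 204063 to 281507 in sham. The libraries also held other tissue. The 5 heart muscle markers, led by Actc1 and Myh6, summed to 17970 in cPTAA 6, 22472 in cPTAA 7 and 117800 in cPTAA 9, against at most 6286 elsewhere. Airway markers, led by Bpifa1 and Scgb1a1 on a list added after seeing the data, summed to 309780 in sham 8, 22521 in sham 11 and 1556 in cPTAA 12, and to at most 282 elsewhere. The 8 brown adipocyte markers summed to 1740 to 45232 in cPTAA and 33699 to 107201 in sham. Counts without these libraries are given below for the 33 genes and for the other gene lists. In whole tissue, fewer cells of a type and less RNA per cell cannot be told apart.

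Of the 33 genes, 9 rose in the aneurysms and 0 fell, by limma on log2(value + 1) with Benjamini-Hochberg adjustment over all tested genes and a threshold of 0.05. That is 27.3% of the genes, against 12.9% of all tested genes that rose and 11.1% that fell. The genes were chosen with earlier results of these data known. The shares and medians here therefore describe the list and do not test it. The 9 were Mx1, Trim30a, Oas1a, Oas3, Ifi44, Dhx58, Oasl1, Zbp1 and Oasl2. Log2 fold changes were above 0 for 32 of 33 and ran from -0.22 for Ifi27l2a to 2.78 for Oas3. Their median was 1.08, where the median of all tested genes was -0.05. An unadjusted p under 0.05 was reached by 20 of the 33, all higher in cPTAA, or 60.6%, against 17.9% of all tested genes. The groups overlapped for 32 of the 33: Mx1 was the 1 gene, 3.03% of the 33, with every cPTAA value above every sham value, which held for 8.02% of all tested genes. The quasi-likelihood test of edgeR on the recovered reads called 5 of the 33 as higher, or 15.2%, where 16.6% of its tested genes rose.

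The spread between libraries was wide for these genes. The median SE of the log2 fold change was 0.475 over the 33 genes and 0.302 over all tested genes. Within groups, the median SD of log2 levels was 0.755 in cPTAA and 1.19 in sham, where tested genes at or above the level of the lowest of the 33 had 0.357 and 0.201. The SD was larger in sham than in cPTAA for 31 of 33 genes, and for 33.1% of all tested genes. Between the highest and lowest sham library, values differed 2.31-fold to 42.2-fold with a median of 6.6-fold, and in cPTAA 2.47-fold to 11.7-fold with a median of 3.94-fold.

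**Figure D1:**
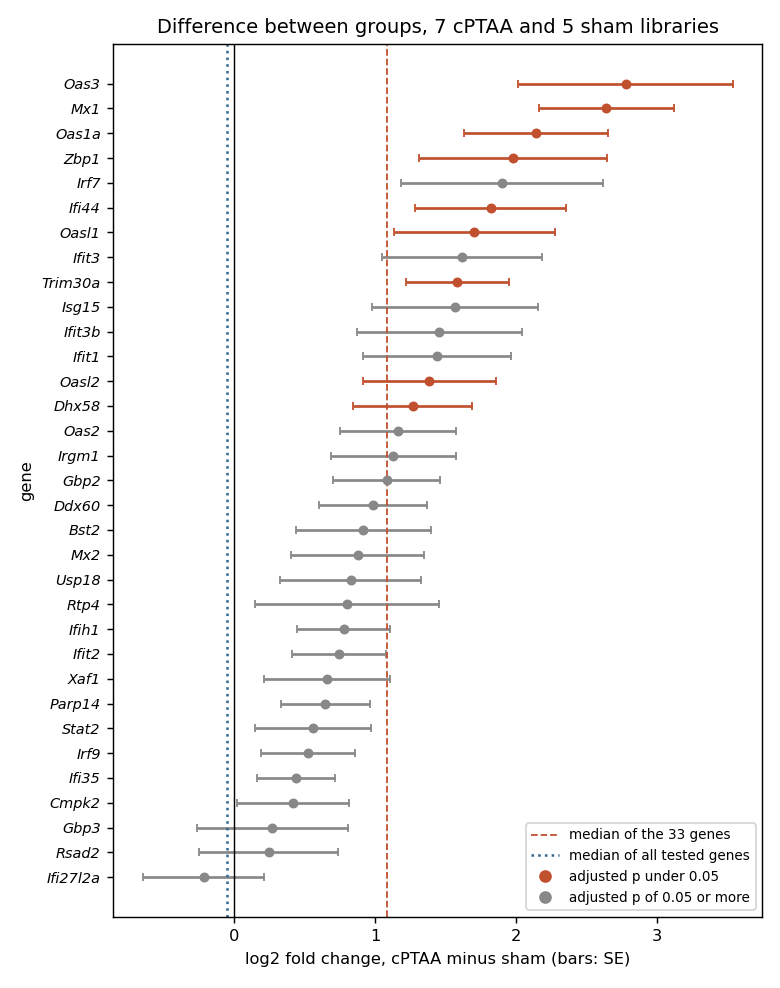
Log2 fold change of each of the 33 genes, cPTAA minus sham, on the log2(value + 1) scale, with bars of 1 SE from limma over 7 cPTAA and 5 sham libraries. Genes with an adjusted p under 0.05 are coloured, the dashed line is the median of the 33 genes at 1.08, and the dotted line is the median of all tested genes at -0.05. Only Ifi27l2a lies below 0, and several genes in grey, such as Irf7 at 1.90, lie further right than some that passed because their errors are wider.

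The promoters of these genes are shown because the members are defined by a shared response and moved together across libraries. RefSeq windows on GRCm38.p6, from 250 bases before to 50 after the annotated start, were matched for 24 of the 33 genes. The core of the ISRE, GAAANNGAAA on either strand with overlapping matches allowed, was found in 15 of the 24 genes (62.5%), and in 3.99% of the 27025 genes with a window. As the genes were chosen as interferon-induced, this share describes that choice and not the comparison of aneurysm and sham. The core of the GAS element, TTCNNNGAA, was found in 4 of the 24 (16.7%) and in 9.55% of all genes. The 160 bases before the start are printed for 7 genes that hold an ISRE core, 5′ to 3′ along the gene's strand, with the matches in capitals. The first 3, Oas1a, Oas3 and Trim30a, rose, and the other 4 did not pass. A match on the opposite strand reads TTTC at both ends.
Oas1a: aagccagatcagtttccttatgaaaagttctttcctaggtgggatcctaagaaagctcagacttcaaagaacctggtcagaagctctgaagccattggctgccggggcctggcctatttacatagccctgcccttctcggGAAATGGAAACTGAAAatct
Oas3: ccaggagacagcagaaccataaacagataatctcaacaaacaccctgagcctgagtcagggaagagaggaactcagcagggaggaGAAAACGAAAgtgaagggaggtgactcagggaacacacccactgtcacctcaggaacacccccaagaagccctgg
Trim30a: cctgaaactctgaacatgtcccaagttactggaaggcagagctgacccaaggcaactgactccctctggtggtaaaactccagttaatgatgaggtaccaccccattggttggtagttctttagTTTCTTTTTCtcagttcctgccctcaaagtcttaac
Ifit3: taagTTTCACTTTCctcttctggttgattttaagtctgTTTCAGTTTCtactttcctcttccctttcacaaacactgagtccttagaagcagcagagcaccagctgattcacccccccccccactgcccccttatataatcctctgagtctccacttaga
Isg15: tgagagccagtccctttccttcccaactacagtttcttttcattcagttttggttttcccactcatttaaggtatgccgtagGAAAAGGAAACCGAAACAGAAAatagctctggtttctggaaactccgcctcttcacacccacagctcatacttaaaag
Gbp3: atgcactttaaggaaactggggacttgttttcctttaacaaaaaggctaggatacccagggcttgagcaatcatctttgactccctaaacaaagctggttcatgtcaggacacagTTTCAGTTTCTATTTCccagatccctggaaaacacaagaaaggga
Rsad2: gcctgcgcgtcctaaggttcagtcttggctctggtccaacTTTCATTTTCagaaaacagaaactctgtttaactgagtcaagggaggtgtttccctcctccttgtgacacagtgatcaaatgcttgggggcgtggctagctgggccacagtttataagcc
These stretches lie at chr5:120907526-120907685 on the minus strand (Oas1a), chr5:120777660-120777819 on the minus strand (Oas3) and chr7:104465194-104465353 on the minus strand (Trim30a). The others lie at chr19:34583369-34583528 on the plus strand (Ifit3), chr4:156200819-156200978 on the minus strand (Isg15), chr3:142559884-142560043 on the plus strand (Gbp3) and chr12:26456453-26456612 on the minus strand (Rsad2).

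The matches in Oas1a began 20 and 14 bases before the start and overlapped by 4 bases, and those in Isg15 began 78, 72 and 66 bases before it and formed 1 run. Gbp3 held overlapping matches 45 and 39 bases before its start, and Rsad2 held 1 match 120 bases before. The core was thus present in genes with a large log2 fold change and in genes near 0. Of the 15 genes with a core in the window 3 rose, as did 3 of the 9 without one (Oasl1, Oasl2 and Ifi44). Mx1, Dhx58 and Zbp1, which also rose, had no window and are in neither count. Presence of the letters is a description of the window and not of binding.

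The 3 transcription factors, Irf7, Irf9 and Stat2, did not pass the test. Irf7, the master regulator that amplifies type I interferon production, was at 1661, 1406, 216, 182 and 787 in sham 1, 5, 8, 10 and 11, and ran from 725 in cPTAA 7 over a median of 2152 to 6680 in cPTAA 9. The 4 cPTAA libraries 9, 2, 6 and 4 lay above every sham library, while cPTAA 3, 12 and 7 lay below sham 1 and 5. Its mean was 3259 ± 2710 (SD, n = 7) against 850 ± 674 (SD, n = 5), with a log2 fold change of 1.90 ± 0.71 (SE) and an adjusted p of 0.0673. Irf9, the DNA-binding part of ISGF3, and Stat2, its activating part, had log2 fold changes of 0.52 ± 0.33 (adjusted p = 0.283) and 0.56 ± 0.41 (adjusted p = 0.363). Exons of Irf7 overlap Phrf1 on the opposite strand, and without a stated strand setting these reads cannot be told apart.

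Of the 4 nucleic acid sensors and helicases, Dhx58 and Zbp1 rose. Zbp1, which senses Z-form nucleic acids and can trigger necroptosis, was at 354, 431, 57.1, 52.1 and 205 in sham 1, 5, 8, 10 and 11 and from 165 over 761 to 1932 in cPTAA. The cPTAA libraries 2, 6, 9 and 4 were above all sham libraries and cPTAA 7 was below sham 11, and the log2 fold change was 1.98 ± 0.67 (adjusted p = 0.0426). Dhx58 (LGP2), a helicase that regulates the RNA sensors RIG-I and MDA5, was at 340, 245, 82.5, 68.4 and 194 in the sham libraries in the same order and from 225 over 394 to 812 in cPTAA. Its log2 fold change was 1.27 ± 0.42 (adjusted p = 0.0414), with the same 4 cPTAA libraries above all sham, and its exons overlap Dhx58os on the opposite strand. Ifih1, which encodes MDA5, had a log2 fold change of 0.78 ± 0.33 (adjusted p = 0.106) and the helicase gene Ddx60 one of 0.98 ± 0.38 (adjusted p = 0.0761), and in both of them cPTAA 2 and 4 alone exceeded the sham libraries.

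Isg15, a ubiquitin-like modifier, and Usp18, the protease that removes it and restrains the type I receptor, did not pass. Isg15 was at 678, 506, 77.4, 79.2 and 257 in sham 1, 5, 8, 10 and 11 and from 250.1 over 790 to 1476 in cPTAA. Sham 1 and 5 were above cPTAA 3, 7 and 12, and sham 8 and 10 were below all cPTAA libraries. The log2 fold change was 1.57 ± 0.59 (adjusted p = 0.067), and that of Usp18, whose exons overlap Gm44148 on the opposite strand, was 0.83 ± 0.50 (adjusted p = 0.256).

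The 4 genes of the IFIT family, some of whose products bind viral RNA and block its translation, had log2 fold changes of 0.74 to 1.62 and did not pass. Ifit3 was at 1677, 1528, 224, 253 and 782 in sham 1, 5, 8, 10 and 11 and from 633 over 2627 to 3920 in cPTAA. The cPTAA libraries 6, 2, 9 and 4 were above all sham, and cPTAA 12 was below sham 11. Its log2 fold change was 1.62 ± 0.57 (adjusted p = 0.0518). Ifit1, Ifit3b and Ifit2 had log2 fold changes of 1.44 ± 0.52 (adjusted p = 0.0593), 1.46 ± 0.59 (adjusted p = 0.0867) and 0.74 ± 0.33 (adjusted p = 0.122). Values of Ifit3 and Ifit3b are uncertain, since 51.2% of the 50-base stretches of Ifit3 transcripts also occur in Ifit3b, and 7.1% of those of Ifit1 occur in Ifit1bl2.

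The OAS family held 4 of the 9 rises, with 4 of its 5 genes past the test and a median log2 fold change of 1.70. These enzymes, and their OAS-like relatives, respond to double-stranded RNA; the active synthetases make 2′-5′-linked oligoadenylate, which activates RNase L. Oas1a was at 228, 314, 110.0, 35.8 and 119 in sham 1, 5, 8, 10 and 11 and from 229 over 733 to 1131 in cPTAA. The cPTAA libraries 2, 9, 6, 4 and 3 were above all sham, and cPTAA 7 and 12 were below sham 5. Its mean of 659 ± 351 (SD, n = 7) against 161 ± 109 (SD, n = 5) gave a log2 fold change of 2.14 ± 0.51 (adjusted p = 0.00679). This value is uncertain, as 57.6% of the 50-base stretches of Oas1a transcripts also occur in Oas1g, which itself averaged 236 ± 160 in cPTAA and 48.9 ± 25.0 in sham (log2 fold change 2.09 ± 0.51, adjusted p = 0.00736; chosen after its values were seen).

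Oas3 had the largest log2 fold change of the 33, 2.78 ± 0.76 (adjusted p = 0.0154), and the widest range in sham. It was at 138, 183, 17.3, 4.34 and 36.1 in sham 1, 5, 8, 10 and 11 and from 102 over 255 to 868 in cPTAA. Among sham libraries 1 and 5 lay within the cPTAA range, and cPTAA 2, 4, 6 and 9 were above them. Oasl1 and Oasl2, OAS-like proteins, had log2 fold changes of 1.70 ± 0.57 (adjusted p = 0.0419) and 1.39 ± 0.48 (adjusted p = 0.0465). Oasl1, whose exons overlap Gm13822 on the opposite strand, ran from 19.4 to 237 in sham and 115 to 571 in cPTAA, and Oasl2 from 199.7 to 1392 and 865 to 3908. In both genes the cPTAA libraries above every sham library were 2, 4, 6 and 9. Oas2, an interferon-induced synthetase like Oas3, was at 272 ± 161 in sham and 555 ± 232 in cPTAA and did not pass (log2 fold change 1.16 ± 0.41, adjusted p = 0.0529).

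Among the 5 dynamin-like GTPases, Mx1 rose. Mx1, an antiviral GTPase whose allele in most laboratory mouse strains lacks part of the coding sequence, was at 116, 123, 41.8, 17.4 and 31.4 in sham 1, 5, 8, 10 and 11 and from 143 in cPTAA 7 over 307 to 590.4 in cPTAA 2. The lowest cPTAA value lay above the highest sham value. The log2 fold change was 2.64 ± 0.48 with the smallest adjusted p of the 33 genes, 0.00102. Its paralogue Mx2, annotated as a polymorphic pseudogene in GENCODE, was at 105 ± 80.9 in sham and 158 ± 65.9 in cPTAA, a log2 fold change of 0.88 ± 0.47 (adjusted p = 0.2). Gbp2 and Gbp3 encode guanylate-binding proteins that attack pathogen vacuoles, and Irgm1 an immunity-related GTPase that regulates its relatives. Gbp2 and Irgm1 had log2 fold changes of 1.08 ± 0.38 (adjusted p = 0.0515) and 1.13 ± 0.44 (adjusted p = 0.0787), and exons of Gbp2 overlap Mir6381 on the opposite strand. Gbp3 differed from them: it was at 2576, 2109, 348, 400.4 and 1028 in sham 1, 5, 8, 10 and 11 and from 548 over 1140 to 2685 in cPTAA. Both sham 1 and sham 5 were above 6 of the 7 cPTAA libraries, and the log2 fold change was 0.27 ± 0.54 (adjusted p = 0.758).

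In the remaining 10 effectors, Trim30a and Ifi44 rose. Trim30a, a mouse TRIM protein that restrains Toll-like receptor signalling, was at 651, 726, 155, 190 and 300.3 in sham 1, 5, 8, 10 and 11 and from 669 over 978 to 1689 in cPTAA. All cPTAA libraries but cPTAA 7 were above all sham libraries, and the log2 fold change was 1.58 ± 0.37 (adjusted p = 0.00552). Its transcripts share 6% of their 50-base stretches with Trim30d, which makes the value somewhat uncertain. Ifi44, an interferon-induced protein, was at 390.1, 402, 105, 39.1 and 80.3 in sham 1, 5, 8, 10 and 11 and from 259 over 455 to 1194 in cPTAA. The cPTAA libraries 2, 6, 4, 9 and 3 exceeded all sham libraries, cPTAA 3 narrowly, and the log2 fold change was 1.82 ± 0.53 (adjusted p = 0.0221).

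Rsad2 (viperin), which makes a chain-terminating nucleotide, and its genomic neighbour Cmpk2, a nucleotide kinase that supplies its substrate, had 0 cPTAA libraries above the highest sham library. Rsad2 was at 1084, 841, 139, 305 and 200.2 in sham 1, 5, 8, 10 and 11 and from 224 over 428 to 861 in cPTAA. Its mean was 502 ± 256 in cPTAA and 514 ± 423 in sham, while its log2 fold change was 0.25 ± 0.49 (adjusted p = 0.763), so the mean of values and the mean of logs differed in sign. Cmpk2 had a log2 fold change of 0.42 ± 0.40 (adjusted p = 0.493). Ifi27l2a, a mitochondrial protein gene induced by interferon, was the 1 gene below 0, at 6350 ± 4418 in cPTAA and 6696 ± 2969 in sham (log2 fold change -0.22 ± 0.43, adjusted p = 0.76), with cPTAA 9 at 14559 above the highest sham value of 10107.

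The other effectors did not pass either. Bst2 (tetherin), which holds virions at the cell surface, had a log2 fold change of 0.92 ± 0.48 (adjusted p = 0.186), and Parp14, a mono-ADP-ribosyltransferase, one of 0.65 ± 0.32 (adjusted p = 0.156). Xaf1, a pro-apoptotic interferon target, was at 632 ± 349 in cPTAA and 407 ± 236 in sham (log2 fold change 0.66 ± 0.45, adjusted p = 0.318). Rtp4, a chaperone of membrane receptors, had a log2 fold change of 0.80 ± 0.65 (adjusted p = 0.416), and Ifi35, whose exons overlap Gm11626 on the opposite strand, one of 0.44 ± 0.28 (adjusted p = 0.279). Rtp4 shares 11.6% of its 50-base stretches with Gm45338, so that its value is uncertain.

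**Figure D2:**
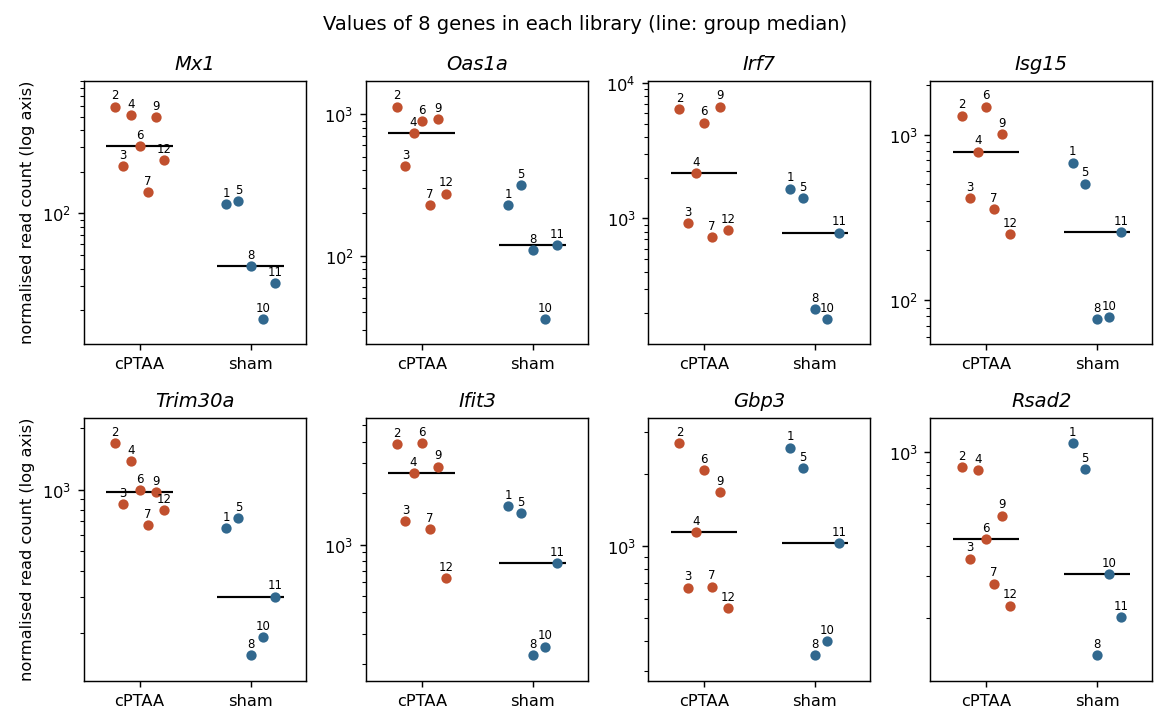
Normalised read count of Mx1, Oas1a, Irf7, Isg15, Trim30a, Ifit3, Gbp3 and Rsad2 in each library on a log axis, with 1 point per library, its number above it and a line at the group median. In every panel sham 1 and 5 are the highest sham libraries, and the panels differ in how many cPTAA libraries lie above them, from 7 for Mx1 to 0 for Rsad2.

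The genes shared an order of libraries. The splits of libraries counted here were set after the values of these genes were seen. The shares over all tested genes beside them therefore describe the order and do not test it. Sham 1 and 5 held the highest 2 sham values for 33 of 33 genes, a pattern found in 13.9% of all tested genes, and sham 11 lay between them and sham 8 and 10 for 29 genes (87.9%, against 3.63%). Sham 10 was lowest for 21 genes and sham 8 for 12. In the aneurysms, the 4 highest values were those of cPTAA 2, 4, 6 and 9 for 31 of 33 genes (93.9%, against 3.95% of all tested genes), the exceptions being Ddx60 and Parp14. The highest cPTAA library was cPTAA 2 for 21 genes, cPTAA 6 for 8 and cPTAA 9 for 4. The lowest was cPTAA 12 for 20 genes, cPTAA 7 for 11 and cPTAA 3 for 2. These counts describe an order within groups, and genes are not independent replicates.

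The number of cPTAA libraries above the highest sham library separated the genes. It was 7 for Mx1, 6 for Trim30a, 5 for Oas1a and Ifi44, 4 for 12 genes, 3 for 7, 2 for 5, 1 for 3 and 0 for Rsad2 and Cmpk2. For 12 of the 12 genes with 4, these were cPTAA 2, 4, 6 and 9. Averaged over the 33 genes, the log2 level was 10.53, 10.17, 10.04 and 9.83 in cPTAA 2, 6, 9 and 4, and 9.05, 8.81 and 8.68 in cPTAA 3, 7 and 12. It was 9.57 and 9.54 in sham 1 and 5, 8.43 in sham 11, and 7.43 and 7.19 in sham 8 and 10. Sham 1 and 5 thus lay between the 2 stretches of the cPTAA libraries, and sham 8, 10 and 11 below every cPTAA library. The group means of this level were 9.59 ± 0.73 (SD, n = 7) and 8.43 ± 1.12 (SD, n = 5).

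**Figure D3:**
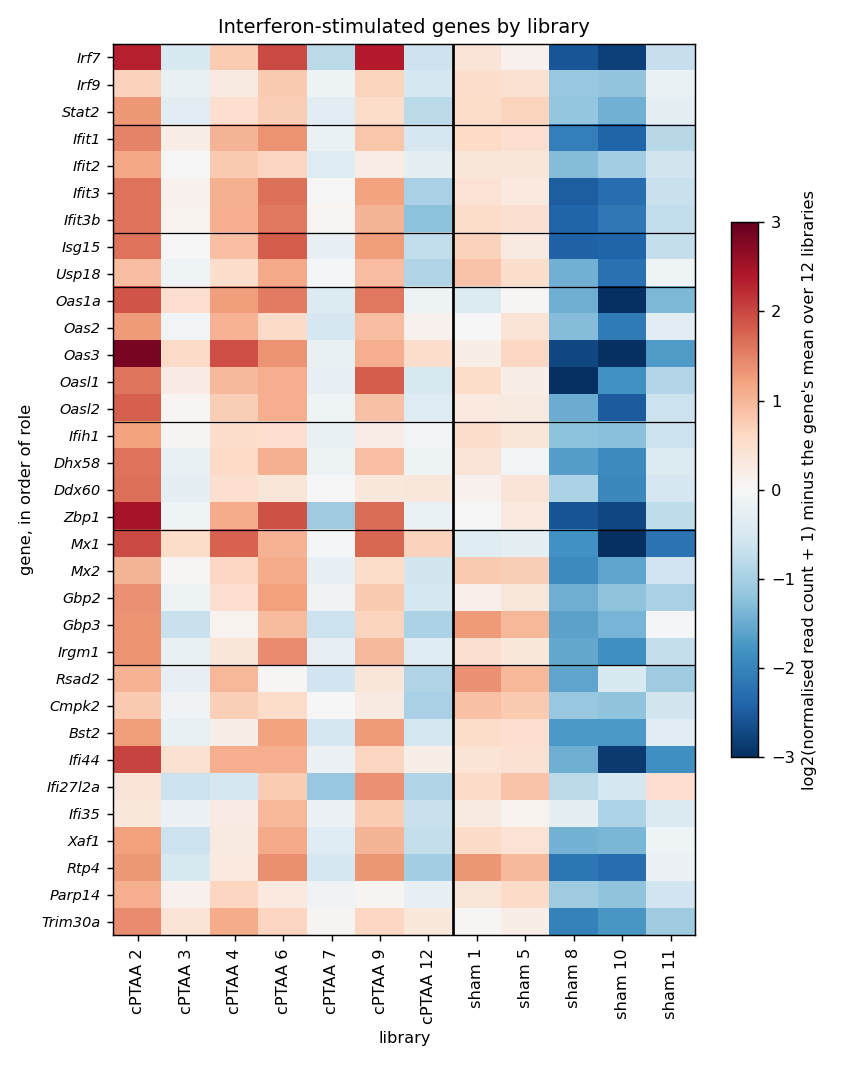
Heat map of the 33 genes (rows, grouped by role) in the 12 libraries (columns), as log2(normalised read count + 1) minus the gene's mean over all libraries. Columns sham 1 and 5 are near or above the gene's mean in most rows. The lowest sham value is that of sham 10 in 21 rows and of sham 8 in 12. In 31 of 33 rows, cPTAA 2, 4, 6 and 9 are higher than cPTAA 3, 7 and 12.

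Parts of this order were present in other interferon-induced genes, and the sham part also in most macrophage markers and nucleic acid sensing genes. The lists were chosen with earlier results known. Of all tested genes, 13.9% had the sham part and 3.95% the cPTAA part. Sham 1 and 5 held the highest 2 sham values for 55 of 63 other type I interferon-induced genes and for 17 of 20 guanylate-binding protein, immunity-related GTPase and interferon gamma target genes. The 4 highest cPTAA values were those of libraries 2, 4, 6 and 9 for 38 of the 63 and 14 of the 20. Among 17 nucleic acid sensing genes the counts were 12 and 1, among 6 interferon receptor genes 2 and 1, among 11 macrophage markers 9 and 3, and among 7 plasmacytoid dendritic cell markers 0 and 0.

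Interferon transcripts themselves were scarce. Of 21 ligand genes 6 were in the table, and Ifng, which encodes interferon gamma, was the 1 that could be tested, at 4.13 ± 6.18 in cPTAA and 1.26 ± 2.29 in sham (log2 fold change 0.92 ± 0.74, adjusted p = 0.402). The other 5, of which Ifna6 and Ifna7 were seen in 1 library each, had group means under 1 unit.

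Of the 6 receptor genes, 4 rose and 0 fell, and 3 had no overlap, each with cPTAA higher. For comparison with this list and those below, 12.9% of all tested genes rose and 11.1% fell. Every cPTAA value lay above every sham value for 8.02% of all tested genes. Ifngr2, the signalling chain of the interferon gamma receptor, was at 2012 ± 382 in cPTAA and 853 ± 90.3 in sham (log2 fold change 1.22 ± 0.14, adjusted p = 3.4e-05). Il10rb, a chain shared with interferon lambda, Ifngr1 and Ifnar1 had log2 fold changes of 0.76 ± 0.15, 0.53 ± 0.15 and 0.47 ± 0.14, with adjusted p of 0.00157, 0.0197 and 0.0247. Ifnar2, the other type I chain, had one of 0.19 ± 0.15 (adjusted p = 0.379). In the signalling list, 4 of 9 rose and 0 fell: Irf8 and Irf5, transcription factors of myeloid cells, by 2.89 ± 0.29 and 2.44 ± 0.19 on the log2 scale, and the kinases Jak1 and Tyk2 by 0.51 ± 0.16 and 0.44 ± 0.13. Of the 4 brakes on the pathway, Socs3, a feedback inhibitor of cytokine receptors, rose (log2 fold change 1.98 ± 0.31, adjusted p = 0.000322) and 0 fell, with 0.81 ± 0.34 for Socs1, 0.14 ± 0.13 for Ptpn2 and -0.20 ± 0.15 for Pias1.

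Among 17 nucleic acid sensing genes, 11 rose, 8 of the list had no overlap, each with cPTAA higher, and 1 fell. Sting1, the adaptor of cytosolic DNA sensing, rose from 187 ± 39.8 in sham to 797 ± 152 in cPTAA (log2 fold change 2.09 ± 0.18). Unc93b1, which traffics Toll-like receptors, Tlr7, a receptor for single-stranded RNA, and Aim2, a DNA sensor of the inflammasome, rose by 1.80 ± 0.19, 2.19 ± 0.31 and 3.26 ± 0.47 on the log2 scale. The gene that fell was Mavs, the adaptor of the RNA helicases, averaging 931 ± 202 in cPTAA and 1297 ± 218 in sham (log2 fold change -0.49 ± 0.17, adjusted p = 0.0474; chosen after its values were seen).

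Among the 63 other type I interferon-induced genes, 31 rose, 1 fell and 10 had no overlap, each with cPTAA higher. The median log2 fold change of the 63 was 0.75. The 4 with the smallest p were Ifi211, Epsti1, Slfn2 and Ifi209, which rose by 2.37 ± 0.36, 2.52 ± 0.38, 2.49 ± 0.39 and 2.71 ± 0.43 on the log2 scale. The 1 that fell was Ifi27, averaging 6314 ± 3290 in cPTAA and 15665 ± 4196 in sham (log2 fold change -1.42 ± 0.33, adjusted p = 0.00611; chosen after its values were seen). Of the 20 interferon gamma targets and GTPases, 6 rose, 0 fell and the median was 0.70. Cxcl10, a chemokine for T cells, rose from 22.7 ± 16.6 in sham to 378 ± 214 in cPTAA (log2 fold change 4.01 ± 0.53, adjusted p = 8.7e-05). Ciita, the regulator of MHC class II genes, Gbp8 and Ifi47 rose by 2.33 ± 0.36, 1.97 ± 0.38 and 1.86 ± 0.45 on the log2 scale.

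Without the libraries that held other tissue, these list counts moved unevenly. Leaving out sham 8 and 11 left 2 receptor, 3 signalling and 10 sensing genes that rose, 21 of the other type I genes and 3 of the interferon gamma targets and GTPases. Ifnar1, Ifngr1, Jak1 and Ifi47 were among those that no longer passed. Leaving out cPTAA 6, 7 and 9 gave 4, 4, 11, 28 and 5 rises in the same lists, and leaving out both sets 3, 4, 11, 21 and 3. Mavs and Ifi27 fell in each of these 3 comparisons. Of all tested genes, 11.1% rose without sham 8 and 11, 16.4% without cPTAA 6, 7 and 9, and 16.5% without both sets. With the brown adipocyte score in the model, the rises were 2, 2, 4, 8 and 1, Socs3 did not pass, and 0 genes of these lists fell. In that fit 3.84% of all tested genes rose. The score nearly separated the groups, at 6.64 to 10.73 in cPTAA and 10.7 to 12.38 in sham. The median SE of all tested genes was 0.453 with it and 0.302 without it. This fit can therefore hardly tell score and group apart.

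**Figure D4:**
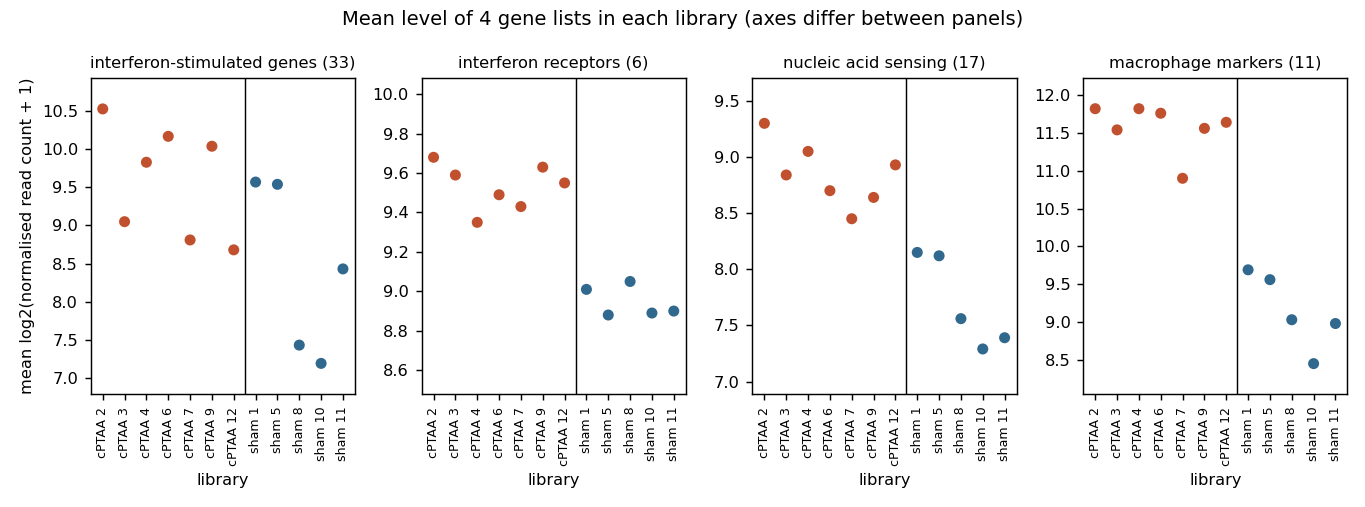
Mean log2(normalised read count + 1) in each library of the 33 interferon-stimulated genes, 6 interferon receptor genes, 17 nucleic acid sensing genes and 11 macrophage markers, with a separate axis for each panel. The groups overlap in the first panel, where sham 1 and 5 are at 9.57 and 9.54, and do not overlap in the other 3.

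Markers of immune cells moved with the comparison, beside 12.9% of all tested genes that rose and 11.1% that fell. Macrophage markers rose for 10 genes out of 11, with 0 falls, and their mean log2 level was 10.9 to 11.82 in cPTAA against 9.69, 9.56, 9.03, 8.45 and 8.98 in sham 1, 5, 8, 10 and 11. Their summed level ran from 37766 to 71053 in cPTAA and from 7026 to 26300 in sham, and was led by Lyz2 and C1qa. The highest sham sum was that of sham 8, which held airway transcripts. Lyz2 alone was at 20798 there, against 2234 to 5095 in the other sham libraries. In cPTAA 12, where 20 of the 33 genes were lowest, the macrophage mean was 11.64, within the range of the other aneurysms, and in cPTAA 7, where 11 were lowest, it was the lowest, 10.9. Recruited monocyte markers, led by Ccr2 and Plac8, rose in 5 of 5, with sums of 954 to 5870 in cPTAA and 205 to 692 in sham. T and NK cell markers, led by Il2rb and Cd8a, rose in 7 of 8 (363 to 1063, against 53.5 to 257), and B cell markers, led by Cd79a and Cd79b, in 4 of 4 (68.2 to 2458, against 14.0 to 80.5), with 0 falls. Of the plasmacytoid dendritic cell markers, led by Tcf4 and Cox6a2, 2 of 7 rose and 0 fell, with sums of 2261 to 6588 in cPTAA and 1528 to 1892 in sham. Cox6a2 was at 5288, 660 and 552 in cPTAA 9, 6 and 7, the libraries with heart muscle transcripts, and at most 19.8 in the other aneurysms. Without it the sums were 1299 to 3283 in cPTAA and 1443 to 1742 in sham, and the defining marker Siglech averaged 21.6 and 14.3 (log2 fold change not past the test). Most of these sums was Tcf4, which averaged 2022.5 in cPTAA and 1576 in sham. The 2 markers of this list that rose were Spib and Ly6d, named after their values were seen. Both were highest in cPTAA 12, at 219 and 386, where the B cell sum was also highest. Klrb1c, an NK cell marker, was at 0 in 4 of the 5 sham libraries, and Ly6g, a neutrophil marker, in 6 of 12 libraries. Neutrophil markers, led by S100a9 and S100a8, had 0 rises and 0 falls in 5 tested (30.9 to 607, against 72.3 to 270). Smooth muscle markers fell in 2 of 6, endothelial markers, led by Pecam1 and Cdh5, in 3 of 5 and brown adipocyte markers, led by Ucp1 and Cidea, in 8 of 8, while fibroblast markers, led by Dcn and Lum, rose in 2 of 5. Leaving out the libraries with heart muscle transcripts, those with airway transcripts or both kept 10 macrophage and 5 monocyte markers that rose. In the same order, T and NK cell markers that rose numbered 6, 6 and 4, and B cell markers 4, 4 and 2. Smooth muscle markers that fell numbered 4, 0 and 3. With the brown adipocyte score in the model, rises numbered 8 for macrophage, 2 for monocyte, 4 for T and NK cell and 0 for B cell markers. The part of these cell types in the changes of the 33 genes was not tested.

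The number of genes that rose depended on single libraries. It was 18 without sham 1 and 17 without sham 5, and 5, 4 and 4 without sham 8, 10 and 11. Leaving out cPTAA 12 gave 15 and leaving out cPTAA 7 gave 12, while 5 rose without any one of cPTAA 2, 4, 6 and 9, and 8 without cPTAA 3. The share of the 33 that rose ran from 12.1% to 54.5% over these comparisons, and that of all tested genes from 10.6% to 14.9%. Oas1a, Oas3, Mx1 and Trim30a passed in each of these 12 comparisons. Without sham 8 and 11, which held airway transcripts, Oas1a and Mx1 were the 2 genes that rose, or 6.06% of the 33 against 11.1% of all tested genes. Without cPTAA 6, 7 and 9, which held heart muscle transcripts, 5 rose (Oas1a, Oas3, Mx1, Ifi44 and Trim30a), or 15.2% against 16.4%, and without both sets Mx1 alone did, or 3.03% against 16.5%. In the main limma test with all libraries, the share that rose was above that of all tested genes. It was below in each of these 3 comparisons. With all libraries it was also below by edgeR (15.2% against 16.6%) and by voom (15.2% against 21.5%). By DESeq2 it was above (36.4% against 10.6% of all listed genes). The 3 comparisons without heart muscle or airway libraries were chosen after seeing the data and have fewer samples. The libraries left out also differed in the mean log2 level of the 33 genes. Sham 8 and 11 were at 7.43 and 8.43, while sham 1, 5 and 10, which stayed, were at 9.57, 9.54 and 7.19. Of the heart muscle libraries, cPTAA 6 and 9 were at 10.17 and 10.04 and cPTAA 7 at 8.81. The part of other tissue and of this level in the lost calls was not tested. Over 24 alternatives in all, the adjusted p of Mx1 ran from 1.57e-06 to 0.0607. When the brown adipocyte score was added to the model, 1 gene, Oasl1, passed, the median log2 fold change of the 33 was 1.73 and the median SE 0.764. In that fit, whose score nearly separated the groups, 3.03% of the 33 genes and 3.84% of all tested genes (822) rose.

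**Figure D5:**
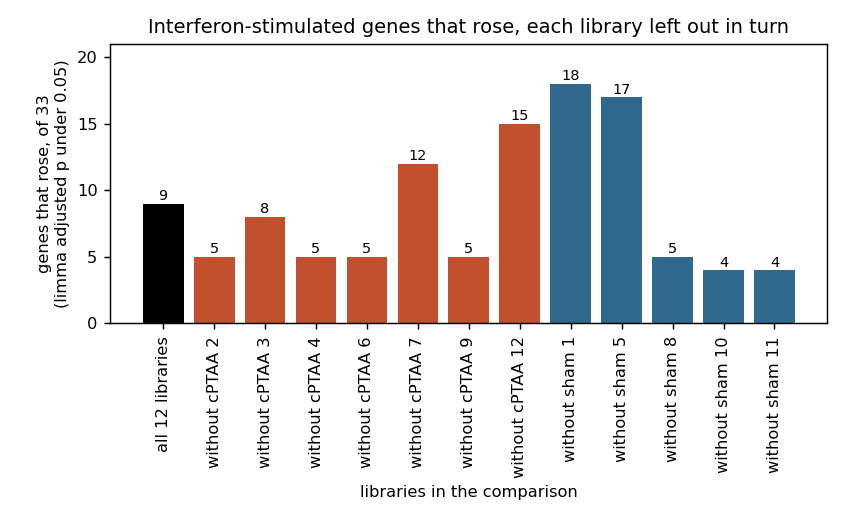
Number of the 33 genes that rose (limma adjusted p under 0.05) with all 12 libraries and with each library left out in turn. The count is 9 with all libraries, highest without sham 1 (18) or sham 5 (17), and lowest without sham 10 or sham 11 (4 each).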

How the data were processed

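RNA was extracted from whole tissue, captured on oligo-dT beads and sequenced, per the labels' protocols. The submitters' processing notes name the build GRCm39 and the tools HISAT2 2.0.5, featureCounts 1.5.0-p3 and StringTie. Strand setting, scaling and any filter are not given in the sources used here. The deposited signal per gene is a whole number of reads divided by 1 factor per library, checked on the values: 100% were whole within 0.02 reads. No label names separate animals, so the p-values rest on the spread between samples, which may be technical. Groups came from the titles, and all per-sample columns were used.

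limma 3.58.1 (R 4.3.3), with a trend, was run on log2(value + 1) for genes at 1 or more in at least 5 libraries. This scale understates the change of low genes. Adjustment was by Benjamini-Hochberg over all tested genes. A score is a list's mean log2(value + 1). No 2 libraries of a group were alike within sampling noise (lowest chi-square per degree of freedom 18.8). Alternatives were edgeR 4.0.16 and DESeq2 1.42.0 on recovered reads, voom, other scalings, filters and pseudocount, a brown adipocyte covariate and left-out libraries. The code was tested on simulated data.

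The members and all lists were chosen with earlier results of these data known. All members are named; of each pathway list the rule names the 4 genes with the smallest p and, where 5 or fewer passed, each that passed, of each marker list the 2 most abundant, and Xaf1 and Ifng. One gene that the rule also names is not reported here. Shared 50-base stretches and exon overlaps came from GENCODE M21 transcripts, promoters from RefSeq on GRCm38.p6, and gene neighbours from RefSeq.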

Additional observations from a re-analysis of the deposited data

Results flagged for a closer look

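In 5 of 72 groups of values examined, 1 library stood apart from the others of its group by Dixon's test, where chance gives about 5 in 100. The ratios were taken on normalised read counts and not on the log2 scale of the main test. That chance rate is for normally distributed values, which these counts need not be. In cPTAA 2, Ifih1 was at 1220 against 765 in the next highest cPTAA library, Ddx60 at 609 against 274, and Ifi44 at 1194 against 627. Ifng was at 17.65 in cPTAA 9 against 3.94 in the next, and at 5.27 in sham 1 against 1.02 in the next sham library, so both rest on few reads. Without cPTAA 2, Ifi44 still rose, and Ifih1 and Ddx60 did not pass with or without it.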

How the results depend on the processing

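The count of genes that fell was 0 in all 24 alternatives, and the median log2 fold change of the 33 genes stayed above 0, from 0.64 to 1.73. The count that rose, 9, was 5 by edgeR and by voom (15.2%, below the 16.6% and 21.5% of all their tested genes), 12 by DESeq2 and with a filter at 10 (36.4%, above 10.6% of all listed and 16.9% of tested genes), 16 with library totals (48.5%, above 15.6%), 1 with the brown adipocyte covariate, and 5, 2 and 1 without the heart muscle libraries, the airway libraries and both. With each library left out it ran from 4 to 18. Calls over all genes numbered 1308 with the covariate and 5128 without it. Scaling to library totals moved the median of all genes by 0.115 and gave 3360 rises and 1830 falls (64.7% rises against 53.7%); the median of the 33 minus that of all genes was 1.15, against 1.14.

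Over 24 alternatives of 33 genes, 672 results kept their direction and their side of the threshold, 40 gained a call, 68 lost one and 12 reversed. Mx1 passed in 23, Oas1a in 22, Oas3 and Trim30a in 21, Ifi44 in 18, Zbp1 in 12, Oasl1 and Dhx58 in 11 and Oasl2 in 9. The log2 fold change of Rsad2 reversed by edgeR (-0.051), by DESeq2 (-0.036), without sham 8 (-0.115, where leaving out single libraries gave up to 0.624), without the airway libraries (-0.54) and without both sets (-0.42). That of Gbp3 reversed by voom (-0.079), without sham 8 (-0.091, up to 0.63 over single libraries left out), without sham 10 (-0.041), without the airway libraries (-0.17) and without both (-0.33). Cmpk2 reversed without both sets (-0.057) and Ifi27l2a with the covariate (0.78). None of these passed, and the cause was not tested. No paired analysis was possible because the groups share no library number.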
